A study of Equus caballus with 4 samples.

Results

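The expression of 5 genes of the pigment cell was followed in the equine sarcoid, a fibroblastic skin tumour of horses that invades locally: PMEL and TYRP1, which serve melanin production, and the receptors KIT, EDNRB and MC1R. They were taken as all probes on a horse expression array whose transcript is a RefSeq transcript of 1 of these genes, and all 5 were found among the 949 genes that could be named there, on 10 of 43603 probes and 14 spots. Each of 4 horses contributed 1 two-colour array, with total RNA of the sarcoid in the Cy3 channel and RNA of skin taken away from the tumour, from the same animal, in the Cy5 channel. The labels give no genotype, treatment, age, coat colour or body site for the horses. Both tissues are bulk pieces, so fewer melanocytes and less RNA per melanocyte cannot be told apart.

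Melanocytes are the pigment cells of skin and hair follicles and derive from the neural crest. They build melanosomes on a fibrillar scaffold formed by the PMEL protein, and melanin is deposited there through enzymes of the tyrosinase family, to which TYRP1 belongs. Receptors on the cell surface control these cells: KIT binds stem cell factor and supports melanocyte survival and migration, EDNRB binds endothelins and is needed for melanocyte precursors, and MC1R, the melanocortin 1 receptor, shifts synthesis towards dark eumelanin. The receptors are not confined to melanocytes: KIT is also a mast cell receptor and EDNRB is also made by endothelial cells. In the horse, variants at several of these genes are known for coat colours.

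On all 4 arrays the sarcoid carried Cy3 and the skin Cy5, so a dye effect specific to a probe is part of every ratio below and cannot be told apart from the tissue. The scanner software tests each spot against its background; between 67.2% and 80.7% of spots passed as well above background, depending on array and channel, and 0 were saturated. In 3 samples the description field mentions embryonic stem cells, which no other label does; the fibroblast markers DCN, LUM, BGN and VIM were well above background in both tissues and higher in every sarcoid than in its skin. Values are log2 ratios of sarcoid over skin within a horse, so a value below 0 means less signal in the sarcoid, and a gene with several probes is represented by its brightest. Levels of different probes were not compared, since probes differ in their response, and summed levels of a marker list are weighted towards its brightest probes. Raw intensities of Cy3 and Cy5 are not on one scale. The median probe spot read 187 in Cy3 and 162 in Cy5 in horse 1, and 113.5 and 236 in horse 4. Raw readings below therefore show signal over background, and only the normalised ratios compare the tissues.

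Both pigment genes were lower in the sarcoids and none of the 3 receptors passed the test. PMEL differed by a mean log2 ratio of -2.16 ± 0.68 (SD, n = 4), a 4.46-fold lower level. TYRP1 signal was 6.08-fold lower against a floor, explained below, since its sarcoid side was not well above background. MC1R and EDNRB lay below 0 in every horse, EDNRB only just in horse 4, and neither passed. Of all targets 22.7% lay below 0 in every horse. KIT was near 0 on average. These tests used limma with Benjamini-Hochberg adjustment over all 19607 targets, of which 9.90% were called lower in the sarcoids, 5.84% higher and 15.7% in either direction at an adjusted p under 0.05.

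PMEL, the melanosome scaffold protein, was read by probes A_69_P002751 and A_69_P006166. The brighter, A_69_P002751, had a median spot intensity of 165 scanner units in the sarcoid and 898.5 in the skin of horse 1, 169.5 and 631.5 in horse 2, 155 and 1157 in horse 3, and 101 and 851 in horse 4. These raw readings did not overlap, but they come from different dyes that are not on one scale. How many other probes on the array do not overlap was not counted. Both channels were well above background on all 4 arrays. After background correction and normalization the log2 ratios of horses 1 to 4 were -2.70, -1.29, -2.69 and -1.94 (limma adjusted p = 0.00755). Horse 2 showed the smallest difference, and every horse lay below 0, as did 22.7% of all targets. The value ranked at the 2.73 percentile of the 19607 targets, counted from the most negative.

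The second PMEL probe, A_69_P006166, was dimmer, at 80 to 94 units in the sarcoids and 159 to 247 in the skins, and it was well above background in only 2 of 4 sarcoids. It therefore entered the test through its skin channel only, a route that favours a lower ratio. Its log2 ratios were -1.42, -0.64, -1.47 and -0.43, with a mean of -0.99 ± 0.53 (SD, n = 4) and a limma adjusted p of 0.0364 in a fit with every probe as its own row. The call of this probe was lost without horse 1 (limma adjusted p = 0.132), without horse 2 (0.074) and without horse 3 (0.103). With Agilent's processed signals the 2 probes lay closer together, at -2.75 and -2.30. In the probe fit 11.2% of 33864 probes were called lower, 6.97% higher and 18.2% in either direction.

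**Figure D1:**
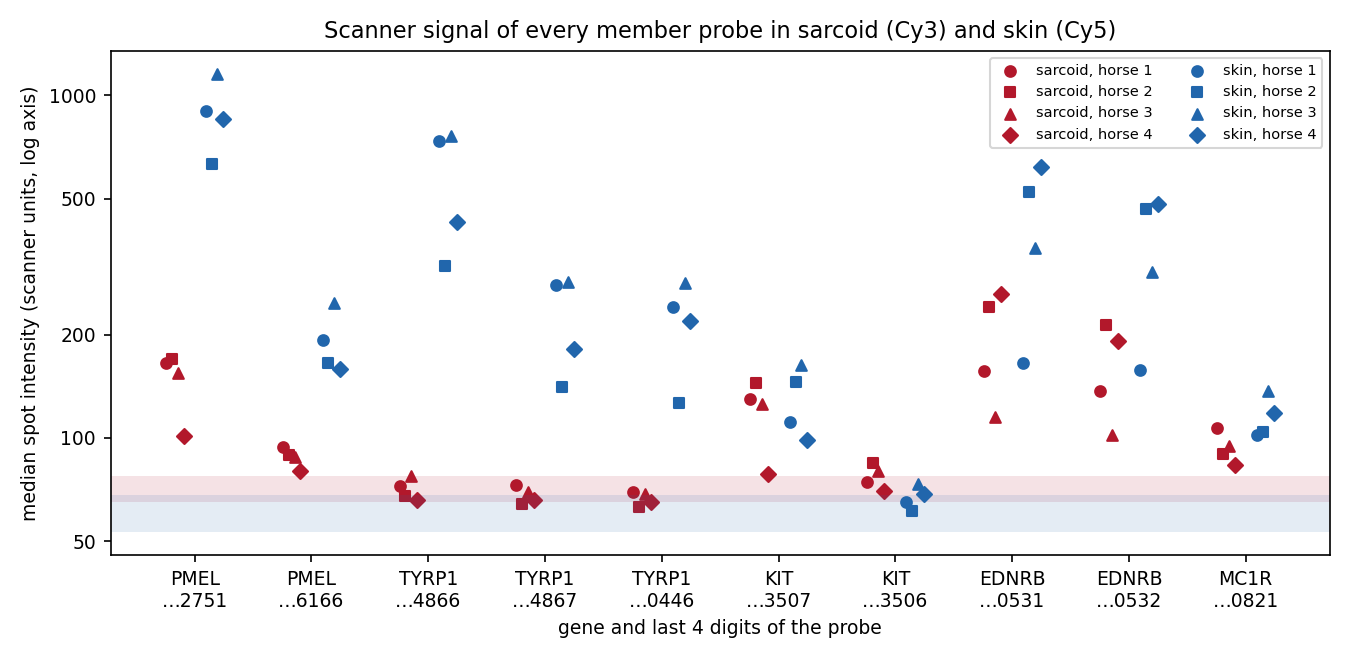
Median spot intensity before any correction (scanner units, log axis) of the 10 member probes in each sarcoid (red, Cy3) and each skin sample (blue, Cy5), 1 symbol per horse; TYRP1 probe A_69_P000446 is the mean of its 5 spots. Shaded bands run from the lowest median to the highest 95th percentile of the negative control spots of a channel (65 to 77.4 in Cy3, 53 to 68.2 in Cy5), and the sarcoid readings of TYRP1 lie in or at the edge of the Cy3 band while those of PMEL lie above it.

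TYRP1, the tyrosinase-related enzyme of eumelanin synthesis, had 3 probes, and none of them was well above background in any sarcoid, while each was in all 4 skins. The brightest, A_69_P004866, read 72.5 in the sarcoid and 736 in the skin of horse 1, 67.5 and 317 in horse 2, 77.5 and 763.5 in horse 3, and 66 and 428 in horse 4. The sarcoid readings differed by little between horses and lay below the skin readings, again in raw units of different dyes. The array carries 153 negative control spots, whose median in the sarcoid channel was between 65 and 71. Of the 28 readings of TYRP1 spots in the sarcoids (7 spots on 4 arrays), 4 exceeded the 95th percentile of the negative controls of their array, against 28 of 28 in the skins.

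The measured log2 ratios of A_69_P004866 were -3.69, -1.94, -3.33 and -1.81 in horses 1 to 4, with a mean of -2.70 ± 0.96 (SD, n = 4; limma adjusted p = 0.00985). Horses 1 and 3 showed the larger differences. A probe was tested if 1 channel was well above background on 3 or more arrays. The 3 TYRP1 probes entered through the skin channel only, where they are high, and this route favours a lower ratio. Without the filter on dim probes the limma adjusted p of A_69_P004866 was 0.0201. Because the sarcoid side is not well above background, the size is also given against a floor. On each array the sarcoid level was raised to the lowest level among probes well above background there, where it lay below it. The mean skin level was set against the mean of these. This gave a signal 6.08-fold lower in the sarcoids for A_69_P004866, 2.74-fold for A_69_P004867 and 2.68-fold for A_69_P000446. These are not strict lower bounds, since a probe can lie above the floor without being well above background. In horse 4 the normalised log2 sarcoid level of A_69_P004866 was 6.57 against a floor of 6.19. A_69_P004867 and A_69_P000446 had measured means of -1.62 ± 0.68 and -1.63 ± 0.57 (SD, n = 4), with limma adjusted p = 0.0153 and 0.00978 in the probe fit. The call of A_69_P004867 was lost without horse 1 (limma adjusted p = 0.0548) and without horse 3 (0.0556).

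Probe A_69_P000446 was printed in 5 spots per array, which gives the error of a single spot. The SD of the log2 ratio between these spots was 0.0770 to 0.271 within an array, and 0.57 between horses for the mean of the spots. One spot on the array of horse 2 was marked as an outlier and left out, so 4 spots were used there. With Agilent's processed signals the mean of A_69_P004866 was -6.47, where the sarcoid signal of the 4 horses was 5.12, 5.26, 8.68 and 5.17 processed units, none of them well above background.

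On the array, 476 of 43603 probes (1.09%) were well above background in all 4 skins and in 0 of 4 sarcoids, as the 3 TYRP1 probes were, and 23 showed the opposite pattern.

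**Figure D2:**
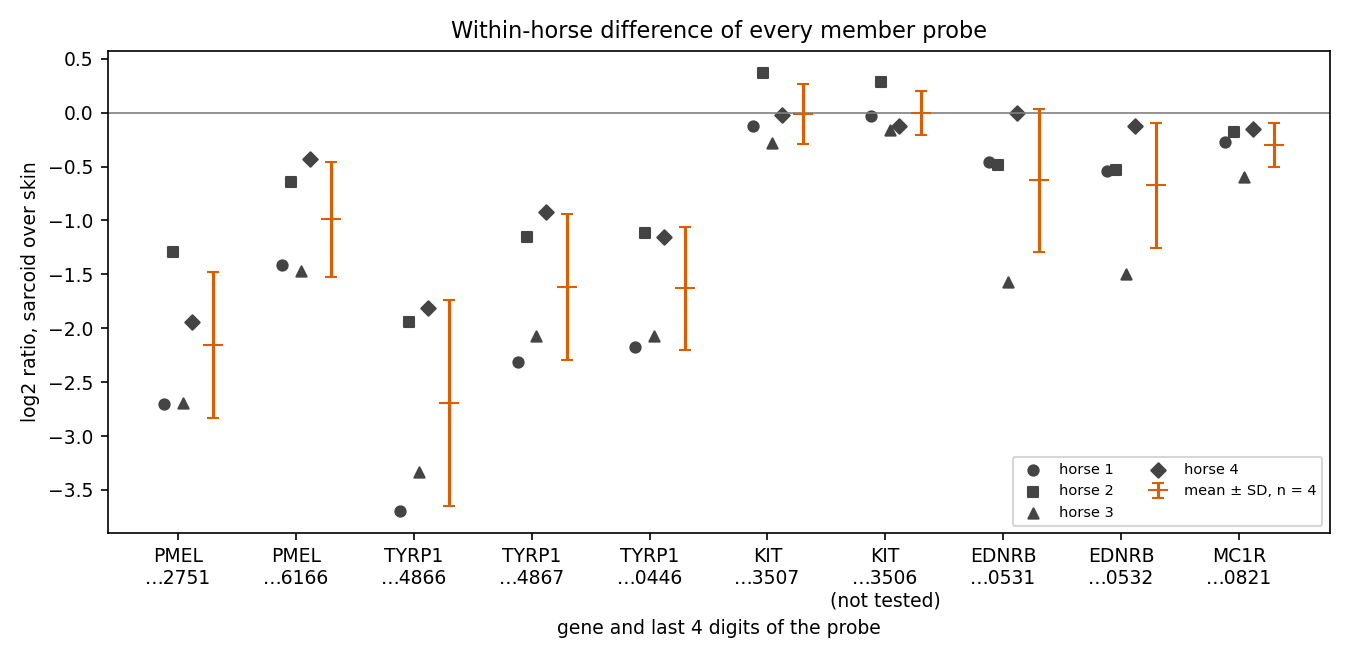
Log2 ratio of sarcoid over skin for each member probe in each horse (symbols) with the mean and SD over 4 horses (orange). The 5 probes of PMEL and TYRP1 lie below 0 in every horse, and the probes of KIT lie on both sides of 0.

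KIT, the receptor for stem cell factor, was read by 2 probes. A_69_P003507 gave 130 in the sarcoid and 111 in the skin of horse 1, 145 and 146 in horse 2, 126 and 163 in horse 3, and 78.5 and 98.5 in horse 4, and it was well above background in 3 of 4 sarcoids and 4 of 4 skins. The sarcoid and skin readings overlapped. The log2 ratios were -0.12, 0.37, -0.28 and -0.02, with a mean of -0.01 ± 0.28 (SD, n = 4; limma adjusted p = 0.961). The sign of so small a mean is not fixed: it was 0.036 with Agilent's processed signals and 0.063 with each array centred on its median. The other probe, A_69_P003506, was well above background in 0 of 4 sarcoids and 1 of 4 skins and was not tested.

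EDNRB, the endothelin B receptor, was well above background in every sample with both probes. A_69_P000531 gave 156.5 in the sarcoid and 165 in the skin of horse 1, 241.5 and 523.5 in horse 2, 115 and 358 in horse 3, and 264 and 616 in horse 4. Its log2 ratios were -0.46, -0.48, -1.57 and -0.0012, with a mean of -0.63 ± 0.66 (SD, n = 4; limma adjusted p = 0.186). Horse 3 was the lowest and horse 4 lay near 0, and without horse 3 the mean was -0.31. The second probe, A_69_P000532, gave -0.54, -0.53, -1.49 and -0.12 in the same horses, a mean of -0.67 ± 0.58 (limma adjusted p = 0.117 in the probe fit, and 0.0441 at a mean of -0.85 with each array centred on its median). Both probes placed horse 3 lowest and horse 4 nearest to 0.

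EDNRB spanned a wider range in the sarcoids than in the skins: the normalised log2 level of A_69_P000531 spanned 2.02 over the 4 sarcoids and 1.16 over the 4 skins. The reverse held for the pigment genes, whose levels spanned 0.44 in sarcoids and 1.01 in skins for PMEL (A_69_P002751) and 0.61 and 1.61 for TYRP1 (A_69_P004866), although TYRP1 in sarcoids was not measured above background. These spans were not tested against each other.

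MC1R, the receptor for alpha-melanocyte stimulating hormone, had 1 probe, A_69_P000821, dim but well above background in all 8 samples. It read 107 in the sarcoid and 102 in the skin of horse 1, 90 and 104 in horse 2, 95 and 137 in horse 3, and 83.5 and 118 in horse 4. The log2 ratios were -0.27, -0.18, -0.59 and -0.15, with a mean of -0.30 ± 0.20 (SD, n = 4; limma adjusted p = 0.185). All horses lay below 0, as they did for 22.7% of all targets, with horse 3 lowest. The 95th percentile of the negative controls reached 77.4 units in the sarcoid channel and 68.2 in the skin channel, and the constant of 50 units added to every corrected signal pulls the ratios of such dim probes towards 0; with Agilent's processed signals the mean was -0.50 (limma adjusted p = 0.196).

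Within each of the 4 horses the ratios of PMEL and TYRP1 were both below those of KIT, EDNRB and MC1R, with each gene read by its brightest probe. The dimmer PMEL probe, A_69_P006166, was at -1.47 in horse 3, above both EDNRB probes there (-1.57 and -1.49). The difference between the genes was not tested. Each of the 5 probes of PMEL and TYRP1 was lower in horses 1 and 3 than in horses 2 and 4. The same order held for KIT probe A_69_P003507, EDNRB probe A_69_P000532 and the MC1R probe. It did not hold for EDNRB probe A_69_P000531 or KIT probe A_69_P003506, so it does not set the pigment genes apart from the receptors. This order was present in 17.6% of all targets and in 28.5% of the 1941 targets called lower. In the skin channel the normalised log2 level of PMEL was 9.95, 8.94, 9.90 and 9.23 in horses 1 to 4 and that of TYRP1 was 9.66, 8.05, 9.32 and 8.39, so the skins of horses 1 and 3 were the higher ones for both genes. In the sarcoids PMEL was at 7.25, 7.65, 7.21 and 7.29, where horse 2 stood highest.

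The calls of PMEL and TYRP1 depended on 1 step of the processing. Outlier spots, as marked by the scanner software, were removed first and the background was then modelled. When all spots entered that model instead, PMEL was at -1.36 (limma adjusted p = 0.258) and TYRP1 at -1.52 (0.317), and 147 targets in all were called lower in place of 1941. The change lay in horses 2 and 3, where PMEL moved to -0.42 and -0.37 and TYRP1 to -0.30 and -0.27, while horses 1 and 4 stayed at -2.70 and -1.94 for PMEL and at -3.70 and -1.81 for TYRP1. On those 2 arrays the fitted SD of the background on all spots was 177 to 1536 units, with single spots down to -97299 after subtraction of their local background, and 0.124 to 1.57 without the outlier spots. Without any background correction PMEL was at -2.12 (limma adjusted p = 0.00805) and TYRP1 at -2.59 (0.0112).

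**Figure D3:**
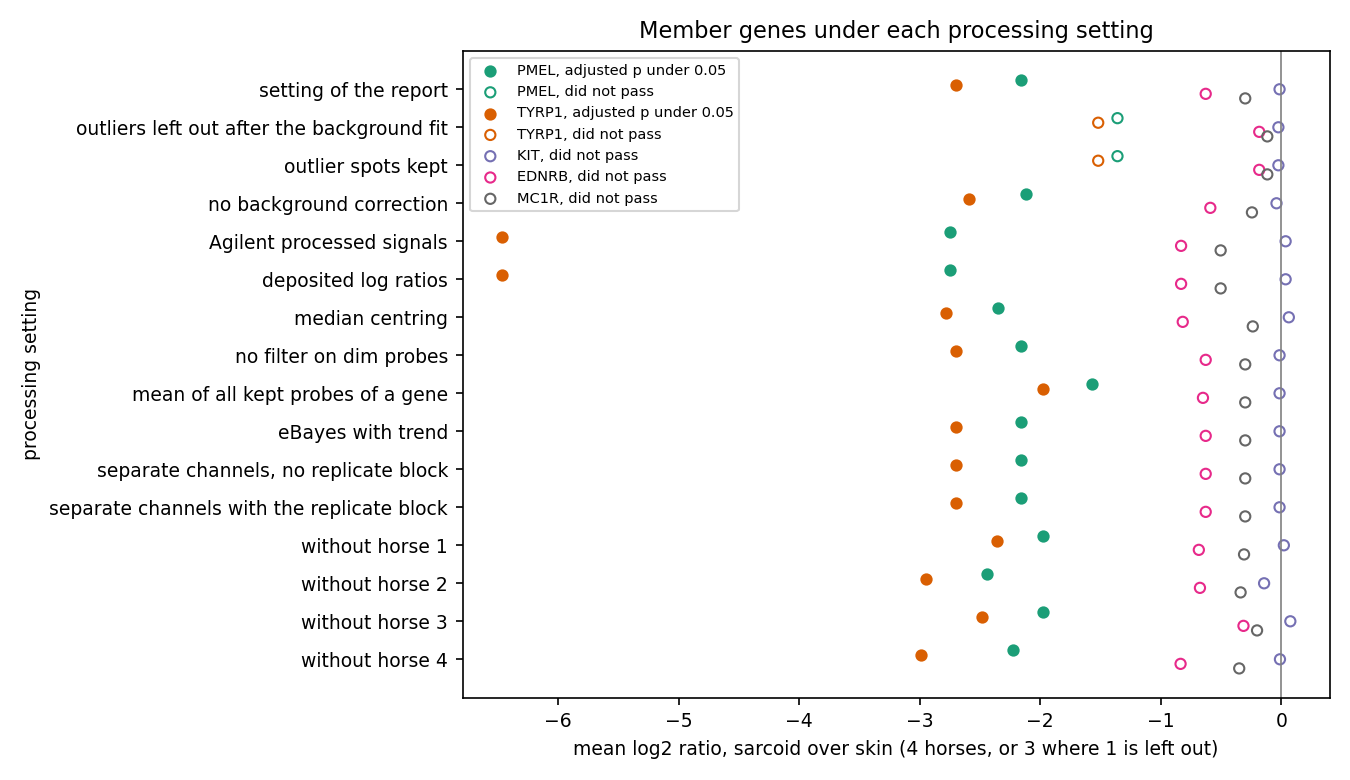
Mean log2 ratio of the 5 genes (colours) under each processing setting, filled where the limma adjusted p was under 0.05 and open where it was not. PMEL and TYRP1 are open only where the background model was fitted to all spots, and KIT, EDNRB and MC1R are open throughout.

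Other genes of pigmentation were taken from a list of 61 ligands, receptors, enzymes, transport proteins and regulators, of which 16 could be named and tested. Besides the 5 genes above, 11 were tested: 3 were lower, 0 higher and 8 did not pass, with a median log2 ratio of -0.30 against 0.00 over all targets. Of all targets 9.90% were called lower and 5.84% higher. The list was chosen with earlier results of these data known, so its counts are a description only. TYR, DCT, MLANA and SOX10, which define melanocytes more narrowly, are not among the probes that could be named, and only 4.99% of the probes on the array could be. Of 12 melanocyte markers PMEL, TYRP1 and MITF were measured.

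MITF, the transcription factor that drives pigment genes, did not pass, with log2 ratios of -0.77, 0.16, -1.19 and 0.04 in horses 1 to 4 and a mean of -0.44 ± 0.65 (SD, n = 4; limma adjusted p = 0.323). Its 3 probes lay between -0.60 and -0.44. MITF is also made by other cells, among them mast cells and macrophages. Horses 1 and 3 were the lowest for MITF, as they were for PMEL, TYRP1, KIT and MC1R.

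Among the ligands, EDN2, endothelin 2, which activates both endothelin receptors, was lower in the sarcoids at -1.76 ± 0.42 (SD, n = 4; limma adjusted p = 0.00452). It stood at -1.46, -2.36, -1.72 and -1.48 in horses 1 to 4, and 5 of its 6 probes were called lower in the probe fit. Every horse lay below 0, with horse 2 the lowest. The means of the 6 probes of EDN2 lay between -1.93 and -0.47. EDN1, endothelin 1, had values of -0.93, -0.54, -1.86 and 0.31 and a mean of -0.75 ± 0.90 (limma adjusted p = 0.215). KITLG, stem cell factor and the ligand of KIT, was at -0.30 ± 0.54 (0.435), and ASIP, the agouti protein that antagonises MC1R, at 0.18 ± 0.53 (0.632). EDNRA, the endothelin A receptor, was at 0.38 ± 0.89 (0.516), with horses 1 and 2 below 0 and horses 3 and 4 above.

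Of the paracrine factors and receptors on the list, FST, the activin antagonist follistatin, was at -3.10 ± 1.18 (SD, n = 4; limma adjusted p = 0.0116), and MET, the receptor for hepatocyte growth factor, at -3.29 ± 2.01 (0.0434). Both are made by epithelial cells of skin as well. The value of MET is that of its brightest probe, and its 3 probes lay between -3.29 and -1.08. MET stood at -4.59, -2.09, -5.36 and -1.11 in horses 1 to 4, again lowest in horses 1 and 3, and its call was lost without horse 1 (limma adjusted p = 0.153), without horse 2 (0.0796), without horse 3 (0.104) and without the filter on dim probes (0.0729). FGF2, a growth factor for melanocytes, was at 0.16 ± 0.25, IL6 at 0.28 ± 0.17 and PTGS2, the inducible cyclooxygenase, at -0.03 ± 0.73, and none of these passed. With the background model fitted to all spots 0 of the 16 list genes were called, EDN2 being at -0.91 (limma adjusted p = 0.222), FST at -2.11 (0.0698) and MET at -2.27 (0.191).

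**Figure D4:**
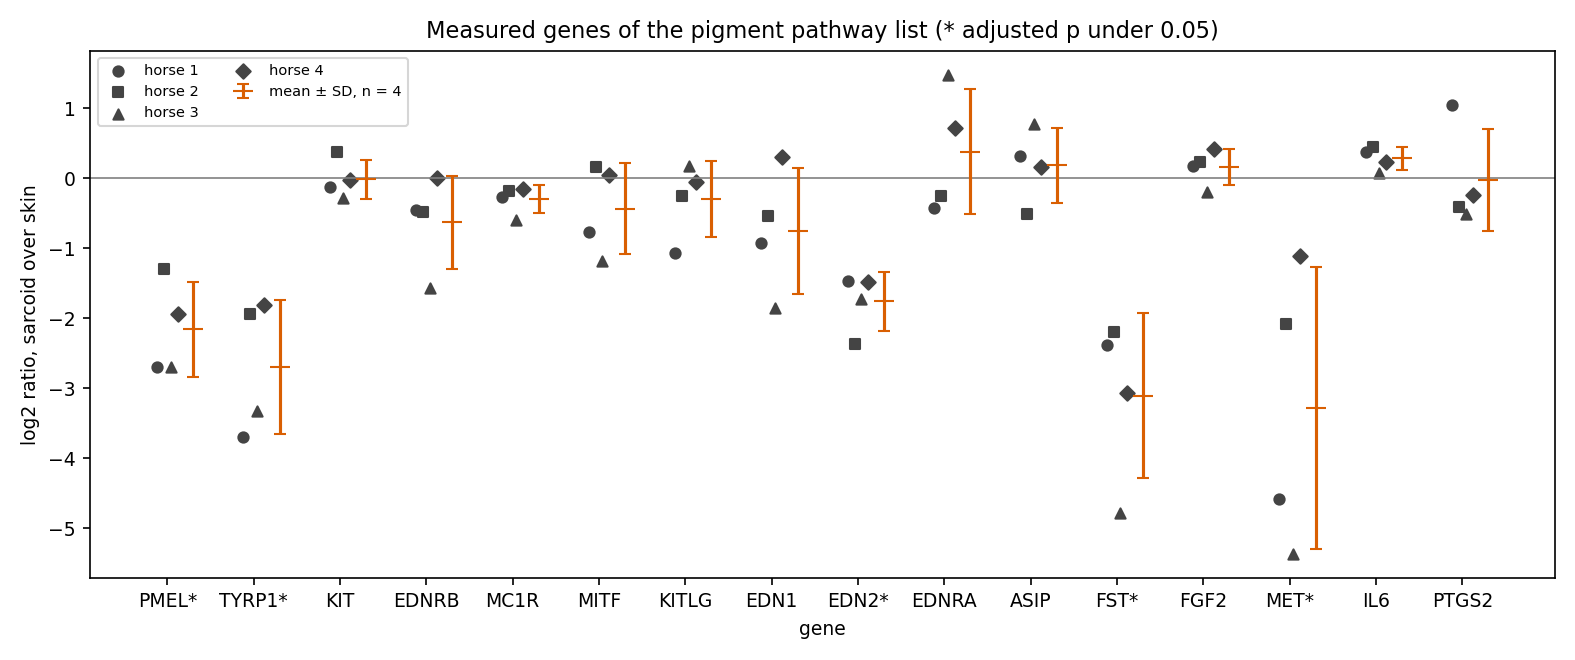
Log2 ratio of sarcoid over skin in each horse (symbols) with the mean and SD (orange) for the 16 measured genes of the pigmentation list; an asterisk marks a limma adjusted p under 0.05. PMEL, TYRP1, EDN2, FST and MET carry the asterisk, and all 5 lie below 0 in every horse.

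Among markers of other skin cells, 3 epithelial and gland genes were lower in the sarcoids and the 4 measured fibroblast genes were higher. KRT15, a keratin of basal keratinocytes and the only one of 8 such markers measured, was at -5.12 ± 0.11 (SD, n = 4), with a summed level of 451 to 990 in sarcoids and 16746 to 33564 in skins (normalised intensity). Of 3 measured gland and epithelial markers LATH (latherin of horse sweat, -6.33 ± 0.26) and LTF (lactoferrin, -2.36 ± 0.79) were lower and CA12 (0.06 ± 0.19) did not pass; their summed level was 3820 to 6500 in sarcoids and 290470 to 405905 in skins. All 4 measured fibroblast markers were higher, LUM by 4.24 ± 1.16, BGN by 3.06 ± 0.61, DCN by 1.84 ± 0.51 and VIM by 1.58 ± 0.47, with a summed level of 582386 to 1001561 in sarcoids and 124594 to 195705 in skins. All 8 of these genes were detected in both tissues, and no hair follicle marker or marker of differentiated keratinocytes could be named. The part of these shifts in the values of PMEL and TYRP1 was not tested.

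For the receptors, markers of the other cells that make them were set beside their values. Mast cell genes were represented, besides KIT, by TPSB2 (a mast cell tryptase) at -1.79, 1.08, 0.17 and -1.62 in horses 1 to 4 and by FCER1A (the alpha chain of the IgE receptor) at -3.10, 0.41, -1.04 and -0.47, neither of which passed (limma adjusted p = 0.544 and 0.275). Horse 2 was the highest for both, as it was for KIT, but also for PMEL and MITF. The share of all targets with horse 2 highest was not counted. The 3 mast cell genes, KIT among them, summed to 303 to 3650 in sarcoids and 1345 to 3975 in skins. The skin sum was the higher one in 3 of 4 horses.

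Endothelial genes were represented, besides EDNRB, by PECAM1 (0.42, 2.29, -1.84 and 0.77 in horses 1 to 4), VWF (0.03, 1.59, -1.95 and 0.10), SELE (-0.61, 0.10, -0.21 and -0.22) and SELP (-0.85, 0.80, -1.03 and 1.02). None of them passed. Horse 3 was the lowest for EDNRB, PECAM1, VWF and SELP, and horse 2, the highest for PECAM1, VWF and SELE, was not the highest for EDNRB. Horse 3 was also the lowest for KIT, MC1R and MITF, and the share of all targets with horse 3 lowest was not counted. The endothelial sum, of 5 genes with EDNRB among them, was 2013 to 23940 in sarcoids and 3179 to 7950 in skins. It was higher in the skin of 1 horse. Of the Schwann cell genes, which share a neural crest origin with melanocytes, PMP22, a myelin protein, was at 0.95 ± 0.68 (SD, n = 4) and did not pass (limma adjusted p = 0.0766). The part of mast, endothelial or Schwann cells in the receptor values was not tested.

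Likeness to each gene was measured as the root mean square (RMS) of the 4 differences between the horses' log2 ratios, over 790 other targets with a gene symbol, as a description of 4 arrays. Nearest to PMEL was CFTR, a chloride channel of epithelia, with an RMS difference of 0.173 and log2 ratios of -2.82, -1.56, -2.81 and -2.08, and the heat shock gene HSPA1B was the third nearest (0.431). No nearest targets are given for TYRP1, whose sarcoid signal was not well above background. EDNRB was nearest to BMP4 (0.222), NRIP1 (0.239) and TIMP3 (0.260), KIT to RPL7 (0.0979), GPRIN3 (0.111) and LY49C (0.123), and MC1R to SEC24C (0.0805), HSD17B1 (0.0810) and RPLP2 (0.0857). For KIT and MC1R, whose ratios lie near 0, many targets lie close by and the order among them carries little.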

How the data were processed

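The submitters' processing notes name Agilent Feature Extraction, version 11.5.1.1, for the deposited scanner files, 1 per horse. These hold spot and background intensity per channel, Agilent's processed intensity, a log10 ratio of Cy5 over Cy3 and flags of 0 or 1, per the file headers. The authors' value table holds the same log10 ratio (largest difference 0). Outlier spots (68 to 119 per array; flags for non-uniform features, feature populations and non-uniform backgrounds) were removed first. Median intensities were corrected with normexp (offset 50) and loess in limma (version 3.58.1, R version 4.3.3), in which control spots had weight 0, and ratios were turned to sarcoid over skin. A probe was kept (33864 of 43603) if 1 channel was well above background on 3 or more arrays, and the 4 log2 ratios of a target were set against 0 in a two-sided limma test (lmFit, eBayes); pairing by horse is inside the ratio. Accessions were named through a RefSeq gene table of another horse assembly than the array design's, so no coordinates are given, and no sequences were used here.

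The 5 genes, the gene lists and the order of the outlier step were chosen with earlier results of these data known. Named were all 5 genes and their probes, all measured genes of the pigmentation list, up to 4 measured markers per cell type and the 3 targets nearest to each gene (not given for TYRP1); a few genes that this rule names are not reported here. The rule of 4 was followed in the order the lists were written. On simulated ratios for 19607 targets, 31.0% of 100 changed by 1 and 75.0% of 100 changed by 2 on the log2 scale were recovered, with 1 false call. The ratios were independent normal values with each target's SD, and all other targets were left unchanged. No dye effect, outlier spots or dim signal were simulated, and in the data 15.7% of targets were called. These rates therefore need not hold for the arrays. The labels call the arrays biological replicates, and their number limits the precision.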

Additional observations from a re-analysis of the deposited data

How the results depend on the processing

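PMEL and TYRP1 stayed lower with an adjusted p under 0.05 under 13 of 15 alternatives, and lost the call when the background model was fitted to all spots, with outliers left out afterwards (-1.36 and -1.52) or kept (-1.36 and -1.52). EDNRB and MC1R stayed below 0 and uncalled under all 15 alternatives. KIT, uncalled in each, was above 0 with Agilent's processed signals (0.036), the deposited log ratios (0.036) and median centring (0.063), and between -0.14 and 0.075 with 1 horse left out. Its probe A_69_P003507 gave the same values in those settings. With 1 horse left out PMEL lay between -2.44 and -1.98 (limma adjusted p of at most 0.0365) and TYRP1 between -2.99 and -2.36 (at most 0.042). With the channels of an array modelled separately and no replicate block the limma adjusted p was 0.000854 for PMEL and 0.00179 for TYRP1, and with the replicate block 0.000376 and 0.000754; the block changed no call of the 5 genes.

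Background counts moved more. With all spots in the background fit 147 targets were lower and 93 higher when outliers were left out afterwards, 147 and 94 when they were kept, and in the first of these 0 of 16 pigmentation genes were called lower, against 5 with Agilent's processed signals and with median centring and 4 to 5 with 1 horse left out. Higher targets numbered 1887 with Agilent's processed signals, 1883 with the deposited log ratios and 614 with median centring. With 1 horse left out 1077 to 1415 targets were lower and 389 to 820 higher. Lower targets made up 62.9% of the calls, 51.8% with Agilent's processed signals and 81.3% with median centring, while the median of all targets moved to 0.09 and -0.10. Signal over background limits TYRP1 in the sarcoids, the second probes of PMEL and KIT, and MC1R.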
